A study of Mus musculus with 3 samples.

Results

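Brown fat bins were squares of 27 µm of the *Trp53*-/- thymus sections in which *Ucp1*, *Cidea*, *Cox7a1* and *Cox8b* together held at least 0.5% of the unique molecular identifiers (UMIs, each counting 1 captured transcript once). Bins entered where they had no fewer than 300 genes and no more than 30% mitochondrial UMIs. It gave 300 of 12044 kept bins (2.49%, exact binomial 95% interval 2.22 to 2.79) in the section labelled KO1134 and 561 of 17425 (3.22%, 2.96 to 3.49) in the section labelled KO1308, 861 bins in all. The wild-type (WT) section had 0 such bins of 27275, which allows a share of up to 0.0110%. Kept bins that were not brown fat bins are called other bins and include white fat bins. Because the measured levels of these 4 genes chose the bins, their levels and every other difference between brown fat bins and the rest of the sections are given as descriptions, with no test. A bin can hold several cells, so transcripts of cells beside adipocytes are counted in it too.

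The 3 sections came from female C57BL/6 mice, 1 section a mouse. KO1134 was a 17-week-old *Trp53*-/- mouse, KO1308 a 21-week-old *Trp53*-/- mouse and WT1101 a 17-week-old *Trp53*+/+ mouse. The deletion was carried in the germline, so it was present in fat, vessels and immune cells as well as in thymocytes, and the KO sections were permeabilised slightly longer than the WT section. Levels are CPM, the UMIs of a gene scaled to the total of all bins of a class, with intervals for counting error only. The targeted gene, *Trp53*, was at 17.2 and 26.6 CPM in the KO sections outside brown fat and at 79.8 in WT. The sections were captured on slides with barcoded spots, and the deposited raw UMI counts summed to 31237062, 21089885 and 41581477 for KO1134, KO1308 and WT1101. With 2 KO mice and 1 WT mouse, no test between genotypes or ages was made. In each pair of values, that of KO1134 comes before that of KO1308.

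Brown adipocytes burn fatty acids to make heat. Their mitochondria oxidise acyl chains through β-oxidation, the TCA cycle and the respiratory chain, and UCP1 in the inner membrane lets the protons return without making ATP. Noradrenaline from sympathetic nerves switches this on through β-adrenergic receptors, cyclic AMP and lipolysis. In mice, brown fat lies between the shoulder blades, along the neck and the aorta and around organs of the chest, and white adipocytes, which store triglyceride, can lie beside it.

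The 4 genes that chose the bins cover the uncoupler and its surroundings. *Ucp1* (ENSMUSG00000031710, GRCm38 chr8:83290352-83298452, plus strand) stood at 1399 and 2758 CPM in brown fat bins (exact Poisson 95% intervals 1315 to 1486 and 2650.1 to 2870.1) and at 6.97 and 9.45 CPM in the other kept bins. *Cidea*, which encodes a lipid droplet protein, stood at 1444 and 1565 CPM against 10.3 and 6.66. *Cox7a1* (chr7:30184144-30186078, plus strand) and *Cox8b* (chr7:140898945-140900446, minus strand) encode the forms of 2 small cytochrome c oxidase subunits that heart, skeletal muscle and brown fat use. *Cox7a1* stood at 1908 and 1922 CPM against 19.4 and 15.2, and *Cox8b* at 3799.9 and 4692 CPM against 41.1 and 31.9. In the WT section, 1 UMI of *Ucp1*, 7 of *Cidea*, 256 of *Cox7a1* and 132 of *Cox8b* were counted over all kept bins, and the highest share of the 4 genes in any WT bin was 0.393%.

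To show the start sites behind these transcripts, the RefSeq promoters (GRCm38.p6, 250 bases before and 50 bases from the start, read along the gene) of *Ucp1* (chr8:83290098-83290397, plus strand), *Cox7a1* (chr7:30183921-30184220, plus strand) and *Cox8b* (chr7:140900397-140900696, minus strand) are printed, with capitals marking matches to AGGTCA, the core recognised by many nuclear receptors, or to TATAAA, the TATA box.
Ucp1: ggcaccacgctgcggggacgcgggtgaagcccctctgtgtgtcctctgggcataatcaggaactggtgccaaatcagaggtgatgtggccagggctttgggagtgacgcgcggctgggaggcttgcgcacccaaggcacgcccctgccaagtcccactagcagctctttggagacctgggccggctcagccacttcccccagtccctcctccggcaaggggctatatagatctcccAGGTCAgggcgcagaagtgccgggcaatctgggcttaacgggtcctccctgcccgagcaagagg
Cox7a1: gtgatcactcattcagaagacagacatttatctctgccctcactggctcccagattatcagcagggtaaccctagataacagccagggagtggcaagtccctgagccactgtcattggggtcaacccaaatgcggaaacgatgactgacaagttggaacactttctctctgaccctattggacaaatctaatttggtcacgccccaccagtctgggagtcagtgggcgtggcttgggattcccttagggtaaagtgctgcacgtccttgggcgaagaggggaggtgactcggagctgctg
Cox8b: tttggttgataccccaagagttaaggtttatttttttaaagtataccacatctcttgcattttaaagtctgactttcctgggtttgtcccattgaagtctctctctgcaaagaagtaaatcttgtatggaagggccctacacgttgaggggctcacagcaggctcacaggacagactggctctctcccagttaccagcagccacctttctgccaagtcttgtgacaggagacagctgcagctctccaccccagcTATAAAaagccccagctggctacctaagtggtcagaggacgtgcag
Both motifs were searched on both strands. The *Ucp1* window held AGGTCA 14 to 9 bases before the start, the *Cox8b* window held TATAAA at bases 4 to 9 from the start, and the *Cox7a1* window held neither. AGGTCA occurred in 16.3% of 32851 promoter windows of the genome, in 11.8% of 9236 windows of genes compared between brown fat bins and other bins and in 16.7% of 496 windows of the genes higher in brown fat bins. The corresponding shares for TATAAA were 13.6%, 6.94% and 7.46%. A match is a description of these letters and does not show a site in use.

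**Figure D1:**
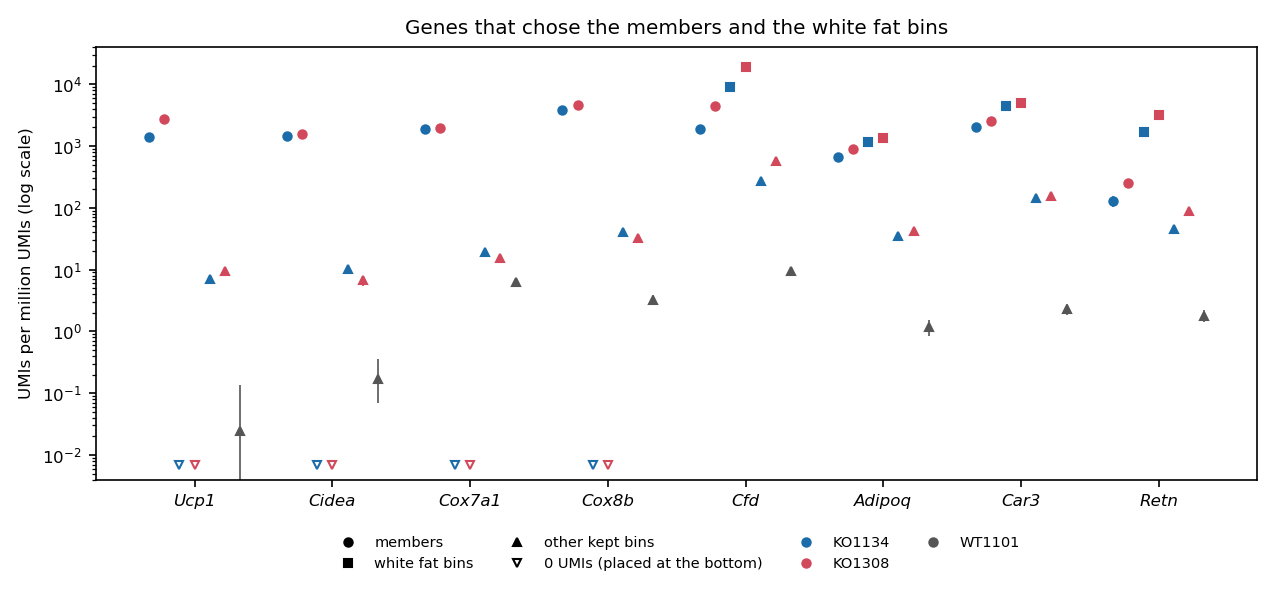
CPM (log scale) of the 4 genes that chose the brown fat bins and the 4 that chose the white fat bins, in brown fat bins ("members", circles), white fat bins (squares) and other kept bins (triangles) of KO1134 (blue) and KO1308 (red), and in the kept bins of WT1101 (grey triangles), with exact Poisson 95% intervals. Open triangles mark 0 UMIs, which the definition of white fat bins fixes for the brown genes; *Ucp1* was at 1399 and 2758 in brown fat bins and *Retn* at 128 and 252, against 1667 and 3145 in white fat bins.

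The bins differed among themselves in these genes. Per bin, the 4 genes held a median of 0.801 and 1.05% of UMIs, with quartiles of 0.635 and 1.01% in KO1134 and 0.820 and 1.27% in KO1308. *Cox8b* supplied 44.4 and 42.9% of their UMIs and *Ucp1* 16.4 and 25.2%. UMIs of all 4 genes were present in 244 of 300 and 386 of 561 bins, at median depths of 2560 and 1505 UMIs a bin, and neither *Ucp1* nor *Cidea* in 9 and 19 bins. In WT, 3 of 27275 bins held UMIs of 2 or more of these genes. The rule cuts a continuous range. The lowest shares inside it were 0.5002 and 0.5042% and the highest outside it 0.4994 and 0.4980%, with 54 and 40 bins between 0.5 and 0.6% and 59 and 41 between 0.4 and 0.5%.

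The label was checked against muscle, which also makes *Cox7a1* and *Cox8b*. Of 14 cardiac muscle genes, *Myh6*, *Myl7*, *Nppa*, *Tnnt2*, *Actc1*, *Myl2*, *Mybpc3*, *Sln* and *Tnnc1* had 0 UMIs in the brown fat bins of both sections, and the whole list held 12 and 10 UMIs. The 14 skeletal muscle genes held 47 and 34 UMIs, of which *Myl1*, a myosin light chain, supplied 21 and 32. Muscle genes reached 0.5% of UMIs in 1 brown fat bin of KO1134 and 0 of KO1308, while 114 and 70 kept bins of the sections did so. *Cox6a2*, a further subunit form of striated muscle, had 2 and 0 UMIs in brown fat bins and made up 0.0812 and 0% of the UMIs of *Cox6a2* and *Cox6a1* together.

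Brown fat bins lay together, although position was not part of the rule. A further brown fat bin touched 288 of 300 (96%, exact binomial 95% interval 93.1 to 97.9) and 551 of 561 bins (98.2%, 96.7 to 99.1), counting the 8 surrounding squares. Of the squares around brown fat bins, 74.9 and 91.9% were brown fat bins, whereas such bins made up 2.49 and 3.22% of all kept bins. They formed 18 and 15 connected patches. The largest patch held 255 bins (85%, 0.186 mm²) in KO1134 and 498 bins (88.8%, 0.363 mm²) in KO1308, and the next held 16 and 47 bins. In KO1134 the largest patch was a band along an edge of the tissue (lower left on the map), 756 by 999 µm in extent, and in KO1308 a compact block apart from the lobes, 945 by 783 µm.

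**Figure D2:**
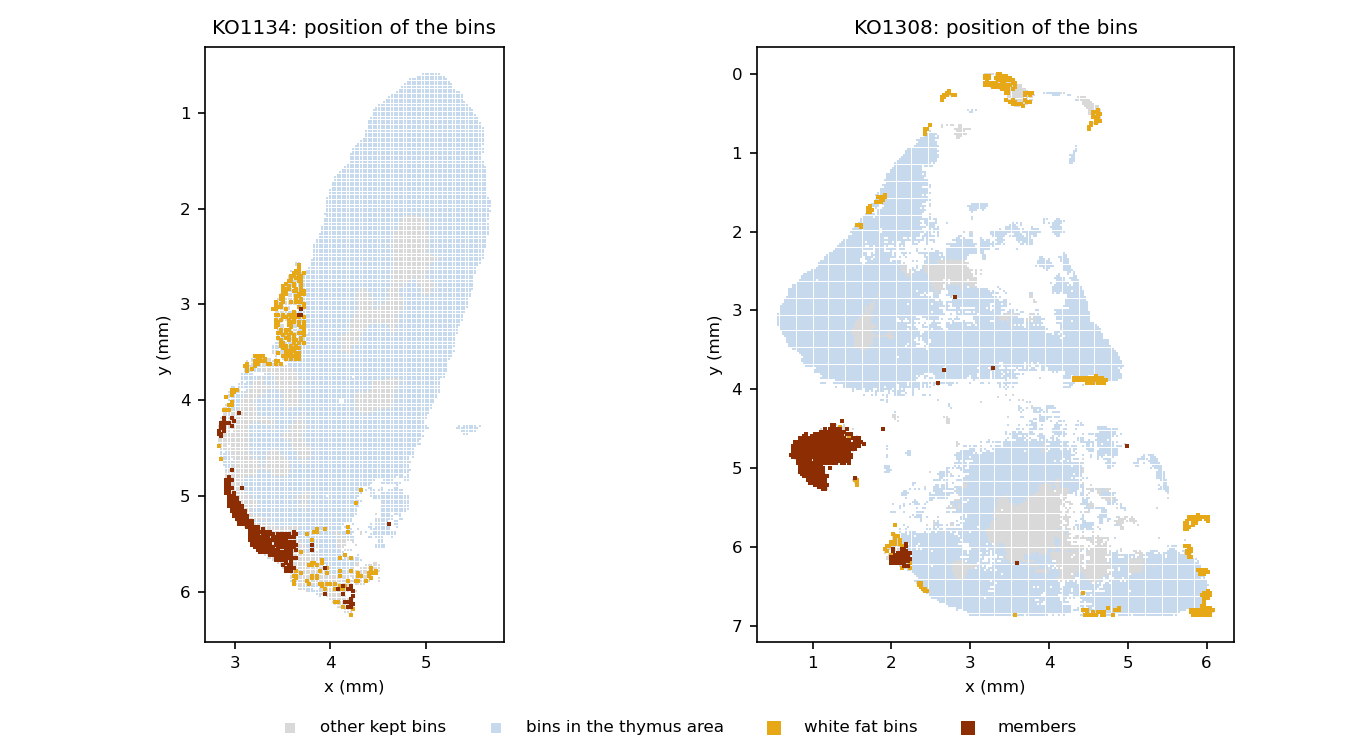
Position of the kept 27 µm bins (x and y in mm) in the KO1134 and KO1308 sections, with brown fat bins ("members") in dark red, white fat bins in yellow, bins of the thymus area in blue and other kept bins in grey. The largest patches hold 255 of 300 and 498 of 561 brown fat bins.

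For the thymus area, the share of UMIs from 6 thymus genes was smoothed over 7 by 7 bins, and bins at 50% or more of the mean of their section were taken. 6 and 14 brown fat bins lay within it, and the median distance from a brown fat bin to it was 157 and 731 µm. White fat bins were those in which *Adipoq*, *Cfd*, *Car3* and *Retn* reached 1% of UMIs with 0 UMIs of the 4 brown genes. There were 281, 328 and 14 of them in KO1134, KO1308 and WT. They made up 0.801 and 0.472% of the squares around brown fat bins. Of these squares, 74.9 and 91.9% were brown fat bins themselves, which could not be white fat bins. The share of white fat bins among all kept bins was 2.33 and 1.88%. Among other kept bins it was 2.43 and 8.16% up to 54 µm from a brown fat patch of at least 4 bins. From 54 to 108 µm it was 8.46 and 6.78%. In all, 14 and 10 white fat bins touched a brown fat bin. The depth of the classes differed: the median bin held 2560 and 1505 UMIs in brown fat, 2644 and 820 in other kept bins and 835 and 690.5 in white fat, so white fat values rest on 242323 and 259498 UMIs in all, against 750027 and 884551 in brown fat bins.

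Mitochondrial transcripts took a large share of the UMIs of brown fat bins. The median share of mitochondrial genes was 20.6 and 20.8% of a bin's UMIs, against 1.00 and 1.05% in other kept bins, 5.70 and 5.09% in white fat bins and 0.676% in WT. It was at least 10% in 288 of 300 and 548 of 561 brown fat bins and in 2.0 and 0.771% of other kept bins. The limit of 30% removed 5 and 6 bins, of which 1 and 5 met the rule. Per gene, *mt-Nd2*, a complex I subunit, held 37336 and 29078 CPM in brown fat bins, 18.5 and 21.4 times its level in other bins. *mt-Co1*, the catalytic core of complex IV, held 33594 and 33787 CPM, and *mt-Cytb* of complex III 26858 and 27084 CPM. The 13 protein-coding genes of the mitochondrial genome together stood 15.7 (95% interval 15.6 to 15.8) and 17.0 (95% interval 16.9 to 17.1) times as high as in other bins and 3.36 and 3.64 times as high as in white fat. Nuclear pseudogenes that copy mitochondrial genes took a further share. They were searched only among genes at least 2-fold higher in brown fat bins than in other bins in both KO sections. The direction of their difference was therefore fixed by this choice. Of these genes, 9 pseudogenes had at least 25% of their 31-base words in mitochondrial transcripts. They held 9.02 and 10.1% of the UMIs of brown fat bins and 0.612 and 0.650% of those of other bins. Reads of these copies and of the mitochondrial genes cannot be told apart with certainty.

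A gene of either genome was counted as higher or lower where its CPM differed at least 2-fold in the same direction in both KO sections, among genes with at least 10 UMIs expected in the smaller class. The expected UMIs came from the pooled rate of both classes. Against white fat, where brown fat bins held more UMIs, genes high in brown fat passed at lower levels than genes high in white fat. Against the other kept bins, 562 of 9822 genes were higher (5.72%), the 4 rule genes and 24 mitochondrial genes among them, and 4995 were lower (50.9%), with a median log2 ratio over all genes of -1.16 and -1.45. The rule used this contrast, so nothing is read from these counts. Against white fat bins, 225 of 2834 genes were higher (7.94%) and 386 lower (13.6%), at medians of -0.42 and -0.51. The shares of both contrasts are the background for the counts of list genes below. Since mitochondrial transcripts took so much of the total, the ratios were also computed over the UMIs left after leaving out mitochondrial and brown marker genes. This moved the medians to -0.84 and -1.12 against other bins and to -0.18 and -0.27 against white fat, where the genes past 2-fold were then 347 higher and 209 lower, so that the share of higher genes among them went from 36.8% to 62.4%. The 9 pseudogene copies of mitochondrial genes, at 9.02 and 10.1% of all UMIs in brown fat bins, were not left out.

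The nuclear subunits of the respiratory chain, which hands electrons to oxygen and pumps protons, were higher in brown fat bins nearly throughout. Of the 80 listed subunits 78 passed the count minimum against other bins. Of the 78, 69 were higher and 2 lower, beside 5.72% and 50.9% of all genes compared. They held 7.91 and 8.80% of UMIs in brown fat bins, 2.33 and 1.96% in other bins and 3.75 and 3.46% in white fat bins. Against white fat, 46 of 78 were higher and 3 lower, beside 7.94% and 13.6% of all genes compared. By complex, the summed ratio to other bins was 3.42 and 4.43 for complex I, 5.59 and 5.96 for complex II, 5.03 and 6.60 for complex III, 3.88 and 5.36 for complex IV outside the rule genes and 2.23 and 2.99 for complex V, the ATP synthase. Complex V had the lowest ratio of the 5 in both sections, also against white fat (1.63 and 2.01, with the other 4 between 2.16 and 3.61).

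Examples for each step were *Ndufv1* of complex I (487 and 561 CPM, 6.80 and 8.65 times other bins), *Sdha* of complex II (1413 and 1346 CPM, 7.15 and 6.72 times), *Uqcrfs1*, the Rieske iron-sulphur protein of complex III (1325 and 1656 CPM, 6.86 and 8.24 times), and *Cycs*, cytochrome c (1111 and 1079 CPM, 7.16 and 7.67 times). Of complex IV, *Cox6c* held 4283 and 4762 CPM and *Cox6a1* 3283 and 3894 CPM. The ATP synthase was uneven. *Atp5b*, the β subunit of the catalytic head, was 3.23 and 4.56 times its level in other bins and the α subunit *Atp5a1* 2.67 and 3.09 times. By contrast, *Atp5g1*, 1 of 3 genes for the membrane ring subunit c, was at 46.7 and 43.0 CPM against 228 and 152 in other bins and 165 and 169.6 in white fat, a ratio of 0.204 (95% interval 0.142 to 0.284) and 0.282 (95% interval 0.199 to 0.388) to other bins. Of the genes that encode the same subunit, *Atp5g2* had ratios of 0.843 and 1.12 and *Atp5g3* of 0.745 and 0.702. *Atpif1*, the inhibitor of the ATP synthase, was at 64.0 and 35.0 CPM against 261 and 198, a ratio of 0.245 and 0.177. *Atp5g1* and *Atpif1* were the 2 respiratory chain genes lower than in other bins, and with *Atp5g3* the 3 lower than in white fat.

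Mitochondrial and nuclear transcripts did not scale together. There were 2.43 and 2.20 UMIs of the 13 mitochondrial protein genes for each UMI of the nuclear subunits in brown fat bins, 0.523 and 0.582 in other bins, 1.52 and 1.54 in white fat bins and 0.337 in WT. Within complex IV, the restricted forms were used beside the common ones. *Cox7a1* made up 58.2 and 55.3% of the UMIs of *Cox7a1* and *Cox7a2* in brown fat bins and 4.42 and 4.09% in other bins, and *Cox8b* 60.7 and 62.3% of those of *Cox8b* and *Cox8a* against 5.75 and 6.15%. Of the common forms, which the rule did not use, *Cox7a2* was 3.28 and 4.36 times and *Cox8a* 3.64 and 5.83 times its level in other bins.

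Genes of fatty acid oxidation were higher as a group. Of 24 that passed the count minimum against other bins, 21 were higher and 1 lower, beside 5.72% and 50.9% of all genes compared. The summed ratio was 9.63 (95% interval 9.41 to 9.85) and 11.1 (95% interval 10.9 to 11.4) and the median log2 ratio 3.22 and 3.41. Against white fat, 16 of 25 were higher and 0 lower, beside 7.94% and 13.6% of all genes compared. The summed ratio to white fat was 2.92 and 4.08. Of the trifunctional protein, which carries out the later steps on long chains, the α subunit *Hadha* stood at 1080.0 and 744 CPM, 8.56 and 9.09 times other bins, and the β subunit *Hadhb* at 1360.0 and 1923 CPM, 13.4 and 17.8 times. The medium-chain dehydrogenase *Acadm* was 19.8 and 22.0 times its level in other bins and 3.12 and 5.85 times that in white fat. The thiolase *Acaa2* was 15 and 21.8 times other bins and 6.9 and 12.2 times white fat. Acyl groups enter mitochondria on carnitine. *Cpt1b*, the muscle form of the enzyme that loads them, had 86 and 115 UMIs in brown fat bins, 37.1 and 32.6 times the level of other bins (too few UMIs are expected in brown fat bins from the rate over all kept bins for it to be counted), whereas *Cpt1a*, the liver form, had 10 and 6 UMIs and ratios of 0.254 and 0.148. The carnitine carrier *Slc25a20* was 11.1 and 13.3 times other bins.

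TCA cycle genes were higher too. Against other bins, 21 of 26 genes were higher and 1 lower, with a summed ratio of 5.72 and 7.04, and against white fat 13 of 25 were higher and 0 lower (2.93 and 3.48). Of all genes compared, 5.72% were higher and 50.9% lower than in other bins, and 7.94% and 13.6% than in white fat. *Sucla2*, the ATP-forming succinyl-CoA ligase, was at 1197 and 1213 CPM, 11.2 and 12.7 times other bins and 8.06 and 9.54 times white fat. *Idh3a* was 11.1 and 11.1 times and *Cs*, citrate synthase, 6.14 and 6.10 times other bins. The kinases that switch pyruvate dehydrogenase off differed from each other. *Pdk4* was at 403 and 674 CPM, 62.5 and 108 times its level in other bins and 10.8 and 9.20 times that in white fat. *Pdk3*, the lower gene of the list, had ratios of 0.221 and 0.0571 to other bins.

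**Figure D3:**
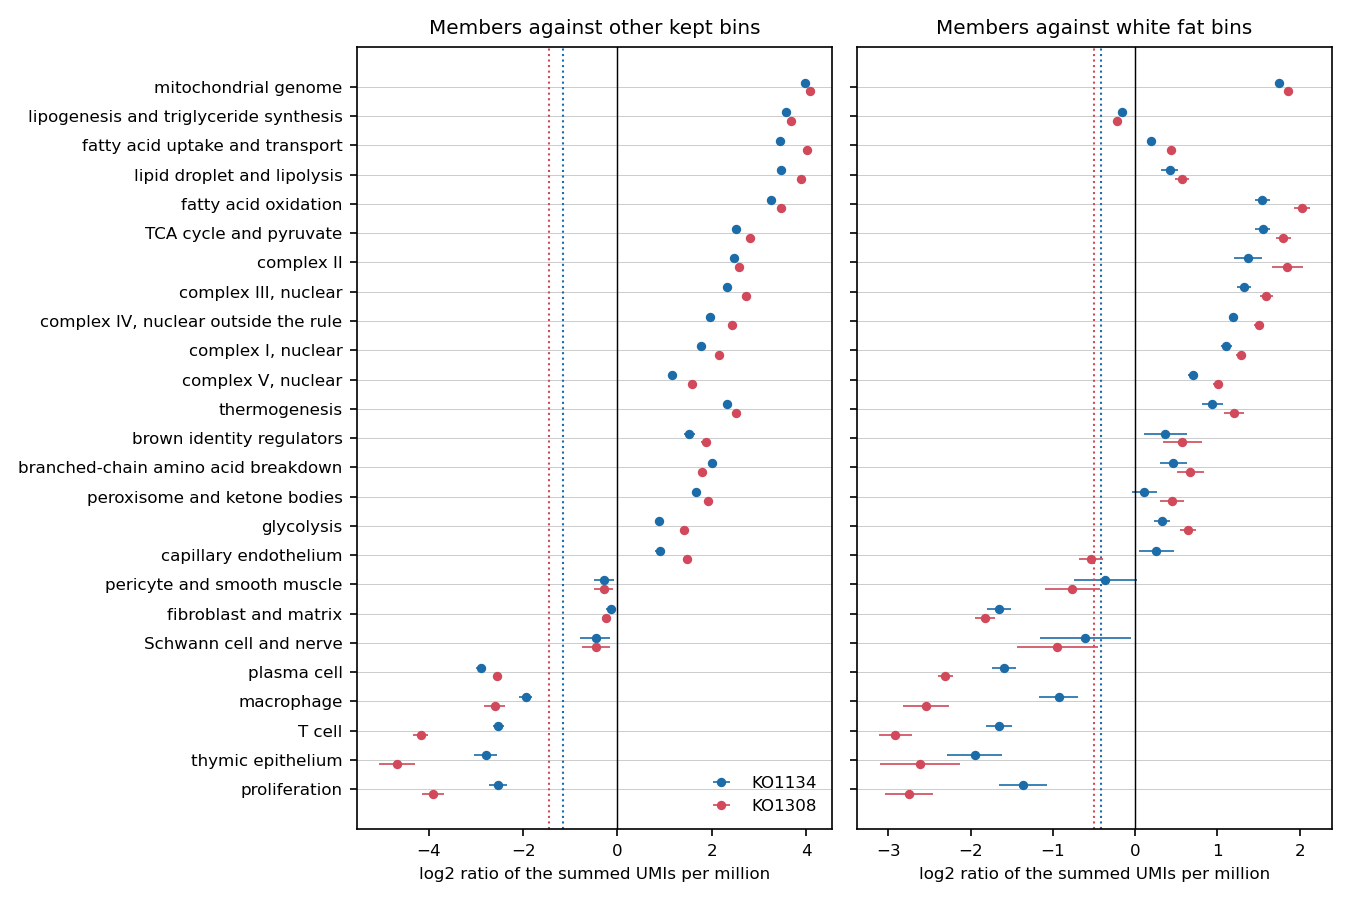
Log2 ratio of the summed CPM of each gene list in brown fat bins ("members") against other kept bins (left) and against white fat bins (right), for KO1134 (blue) and KO1308 (red), with exact conditional binomial 95% intervals. Dotted lines mark the median over all genes compared (-1.16 and -1.45 on the left); oxidation, TCA cycle and respiratory chain lists lie to the right of 0 in both panels, while lipogenesis lies near 0 against white fat.

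Genes of thermogenesis and its control were mostly scarce. Of 40 listed genes, 17 passed the count minimum against other bins. Of the 17, 9 were higher and 2 lower, beside 5.72% and 50.9% of all genes compared. Of the cyclic AMP pathway, *Prkar2b*, a regulatory subunit of protein kinase A, was at 499 and 629.7 CPM, 11.7 and 27.8 times other bins and 2.16 and 3.14 times white fat. *Gnas*, the stimulatory G protein, was at 760.0 and 763 CPM, 3.10 and 3.43 times other bins and 3.47 and 2.36 times white fat. *Adrb3*, the β3-adrenergic receptor, had 103 and 196 UMIs, 19.0 and 29.7 times the level of other bins and 0.792 and 1.05 times that of white fat. *Adra1a*, an α1-adrenergic receptor, had 46 and 66 UMIs and ratios of 17.4 and 21.1 to other bins and 2.97 and 6.45 to white fat. *Dio2*, which activates thyroid hormone, had 39 and 83 UMIs, and its level was 21.1 and 18.3 times that of other bins. *Adrb3*, *Adra1a* and *Dio2* had too few expected UMIs against other bins to be counted among the higher genes.

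Against white fat, 21 genes of this list passed, and 14 were higher and 0 lower, beside 7.94% and 13.6% of all genes compared. The count minimum let genes high in brown fat pass more readily here, so nothing is read from these counts. Among the 14 higher genes were *Clstn3* (137 and 193 CPM against 20.6 and 42.4 in white fat), *Kcnk3*, a potassium channel (121 and 177 against 20.6 and 46.2), *Otop1*, a proton channel (62.7 and 89.3 against 16.5 and 7.71), and *Letmd1* (180.0 and 248 against 33.0 and 54). *Fabp3*, a fatty acid binding protein of oxidative tissues, had 123 and 136 UMIs in brown fat bins and 2 and 0 in white fat bins. *S100b*, also a Schwann cell gene, had 20 and 23 UMIs in brown fat bins and 0 and 0 in white fat bins, and *Elovl3*, an elongase induced in brown fat by cold, 5 and 39 UMIs against 0 and 0.

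Transcription factors of the brown programme were present at low counts. Of 18 listed regulators 6 were compared with other bins, and 3 were higher and 2 lower, beside 5.72% and 50.9% of all genes compared. *Epsti1*, among the lower genes, had 20 and 2 UMIs and ratios of 0.228 and 0.0197. *Pparg*, the receptor that drives adipocyte differentiation, had 182 and 160 UMIs in brown fat bins and was 18.9 and 22.9 times other bins and 1.90 and 1.14 times white fat. Its partner *Cebpa* was 5.42 and 8.61 times and *Cebpb* 6.62 and 9.0 times other bins. Of the brown determinants, *Prdm16* had 39 and 37 UMIs, 16.8 and 13.9 times the level of other bins, and *Ebf2* 21 and 38 UMIs, 21.8 and 37.7 times. *Ppargc1a*, the PGC-1α coactivator of mitochondrial genes, had 14 and 25 UMIs, 12.6 and 16.5 times. *Zic1*, a marker of brown fat between the shoulder blades, and *Tbx15*, *En1* and *Pax3* had 0 UMIs in brown fat bins of both sections, where 3 UMIs would be 4.0 and 3.39 CPM. Of the 10 genes of the beige fat list 2 were compared with other bins, and *Slc36a2*, an amino acid transporter, was higher, at 33.2 and 41.4 times, and *Sp100* lower, at 0.231 and 0.0910 times. *P2rx5*, an ATP receptor that had too few expected UMIs to be counted, was 27.7 and 15.7 times other bins. Of the mitochondrial biogenesis genes, 24 were compared with other bins. Of the 24, 4 were higher and 2 lower, beside 5.72% and 50.9% of all genes compared. *Tfam*, which packages mitochondrial DNA, had ratios of 0.572 and 0.271, and *Chchd10*, a protein of the space between the membranes, was 21.9 and 28.1 times other bins.

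Other heat-producing cycles were uneven. *Gpd2*, the mitochondrial enzyme of the glycerol phosphate shuttle, was 8.88 and 11.8 times other bins and 4.15 and 4.03 times white fat, and its cytosolic partner *Gpd1* was at 1713 and 2860.2 CPM, 73.3 (95% interval 66.8 to 80.4) and 88.9 (95% interval 81.1 to 97.6) times other bins and 6.29 and 4.92 times white fat. Of the creatine cycle, *Ckb* had 7 and 20 UMIs, *Gamt* 5 and 7, and *Ckmt1* and *Ckmt2* had 0 in both sections. *Sln*, a gene of the cardiac muscle list, also had 0 in both sections. *Ucp2*, a relative of *Ucp1* that immune cells express, was lower, at 52.0 and 41.8 CPM against 365 and 343 in other bins and 128 and 204 in white fat. *Ucp3* had 11 and 31 UMIs, 15.4 and 34.2 times the level of other bins.

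Brown fat bins also carried the genes that take up, store and make fat, at levels near those of white fat: the list of uptake and transport was 1.14 and 1.35 times and that of lipid droplets 1.34 and 1.49 times white fat. *Fabp4*, the adipocyte fatty acid binding protein, was at 10441 and 14389 CPM in brown fat bins, 455 and 493 in other bins and 8476 and 10042 in white fat. *Lpl*, which frees fatty acids from lipoproteins, was at 1977 and 2227 CPM, 1.10 and 1.39 times white fat. *Cd36*, a fatty acid transporter, was at 748 and 962 CPM, 0.944 and 1.04 times white fat. Of all genes compared, 5.72% were higher and 50.9% lower than in other bins, and 7.94% and 13.6% than in white fat. The lipid droplet list had 13 of 15 genes higher and 0 lower against other bins, and 3 of 17 higher and 1 lower against white fat. Its lipase *Pnpla2* was 1.57 and 1.97 times white fat and the coat protein *Plin1* 0.782 and 1.06 times. *Plin5*, which ties droplets to mitochondria, had 65 and 88 UMIs and was 59.9 and 103 times other bins and 7.0 and 8.61 times white fat, while *Plin4* had ratios of 0.340 and 0.323 to white fat.

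Lipogenesis was high in brown fat bins and in white fat bins alike. The list was 11.9 and 12.9 times as high as in other bins, with 17 of 20 genes higher and 1 lower, and 0.892 and 0.859 times white fat, with 2 of 21 higher and 3 lower, but over the UMIs without mitochondrial and brown marker genes the mean log2 ratio to white fat was 0.067 in place of -0.192, so its direction against white fat depends on the scaling. *Scd1*, the stearoyl-CoA desaturase, was at 7619.7 and 11314 CPM against 11790 and 16686 in white fat. *Fasn*, fatty acid synthase, was at 6444 and 7605 against 4688 and 6689.8. The 2 higher genes were *Pck1*, an enzyme of glycerol phosphate supply, at 2.46 and 5.54 times white fat, and *Acacb*, an acetyl-CoA carboxylase, at 2.42 and 2.15 times. *Me1* and *Pcx*, which feed NADPH and oxaloacetate to fatty acid synthesis, and *Scd2* were the 3 lower genes, with *Me1* at 0.314 and 0.341 and *Pcx* at 0.439 and 0.404 times white fat.

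White fat genes set the 2 kinds of fat apart, partly by the definition of the white fat bins. *Cfd*, complement factor D, was at 1851 and 4515 CPM in brown fat bins and 9062 and 19210.2 in white fat bins, and *Retn*, resistin, at 128 and 252 against 1667 and 3145. *Adipoq*, adiponectin, was at 667 and 910.1 CPM against 1168 and 1360.3, and *Car3* at 2003 and 2513 against 4403 and 4894. Of genes that did not choose the bins, *Trf*, transferrin, was at 30.7 and 28.3 CPM against 297 and 663 and *Cyp2e1* at 96.0 and 85.9 against 623 and 539.5, and *Lep*, leptin, had 21 and 13 UMIs against 20 and 13. *Adig* was 1.08 and 0.966 times white fat. UMIs of the white genes of the rule were present in 98.7 and 98.9% of brown fat bins, so nearly all bins held UMIs of both sets of genes. Such UMIs do not by themselves show white adipocytes in a bin. These genes reached 1% of UMIs in 19 (6.33%) and 147 (26.2%) brown fat bins.

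Of the factors that brown fat secretes, 5 of 7 were higher and 0 lower against other bins, and 0 of 7 higher and 2 lower against white fat. For this and the next lists, 5.72% of all genes compared were higher and 50.9% lower than in other bins. Against white fat these shares were 7.94% and 13.6%. *Vegfa*, the main growth factor for vessels, was 6.63 and 8.11 times other bins and 1.48 and 1.08 times white fat, and *Vegfb* was 3.47 and 5.07 times other bins. *Nrg4* had 51 and 43 UMIs and was 3.0 and 2.42 times other bins, and *Fgf21* had 1 and 1 UMI. Lower than in white fat were *Rbp4*, the retinol carrier, at ratios of 0.257 and 0.221, and *Igf1*, at 0.298 and 0.175. Branched-chain amino acid breakdown had 13 of 17 genes higher and 0 lower against other bins, with a summed ratio of 4.0 and 3.45, and 1.38 and 1.59 against white fat. Glycolysis had 8 of 16 higher and 2 lower. *Hk2*, a hexokinase regulated by insulin, was 6.48 and 13.1 times other bins, and *Hk1* had ratios of 0.205 and 0.344. Among stress genes, *Sod2*, the mitochondrial superoxide dismutase, was 5.05 and 6.80 times and *Gpx4* 4.31 and 6.14 times other bins, whereas of the chaperones *Hspa8* had ratios of 0.360 and 0.419 and *Hsp90aa1* of 0.334 and 0.244.

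Other cell types were represented to different degrees, and in these bins fewer cells of a type and less RNA per cell cannot be told apart. Capillary endothelium had 6 of 11 genes higher and 1 lower against other bins, beside 5.72% and 50.9% of all genes compared. Its summed ratio was 1.87 and 2.77. *Gpihbp1*, which holds lipoprotein lipase on capillaries, was at 117 and 159 CPM and 10.1 and 13.5 times, *Aqp1* 3.68 and 3.61 times, and *Pecam1*, which leukocytes also express, had ratios of 0.675 and 0.537. The direction of this list against white fat differed between sections (1.19 and 0.690). Fibroblast genes were lower than in white fat, with 0 of 7 higher and 6 lower, beside 7.94% and 13.6% of all genes compared. Their summed ratios were 0.318 and 0.282, and *Dcn* was at 85.3 and 71.2 CPM against 309.5 and 478. Against other bins the fibroblast list stood at 0.912 and 0.849, and its mean log2 ratio turned from -0.185 to 0.143 over the UMIs without mitochondrial and brown marker genes. The 12 nerve and Schwann cell genes held 87 and 97 UMIs in brown fat bins, 0.725 and 0.733 times other bins. Of the 2 compared, *Pmp22* was higher (2.07 and 2.01 times) and *Mbp*, which other cells also express, lower (0.321 and 0.311 times), and *S100b* held 20 and 23 UMIs, whereas *Th*, *Dbh*, *Nefl*, *Nefm* and *Sox10* had 0 in both sections.

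Lymphoid and thymic transcripts were low in brown fat bins. Of 10 T cell genes 10 were lower than in other bins, with summed ratios of 0.173 (95% interval 0.160 to 0.187) and 0.0552 (95% interval 0.0491 to 0.0618), and all 12 proliferation genes, 8 thymic epithelium genes and 8 genes of dendritic cells and MHC class II were lower too, as were 7 of 8 macrophage genes compared. *Trbc2*, a T cell receptor constant chain, was at 192 and 102 CPM against 1041 and 2049, *Mki67* at 56.0 and 19.2 against 287 and 314 and *Ccl25*, a chemokine of thymic epithelium, at 82.7 and 24.9 against 531 and 523. The T cell list held 861 and 343 CPM in brown fat bins, and 2711 and 2586 in white fat bins. Since 50.9% of all genes compared were lower, a low value alone does not set these lists apart.

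*Trp53* itself had 6 and 0 UMIs in brown fat bins. Of the p53 target genes, 14 were compared with other bins, and 1 was higher and 9 lower, beside 5.72% higher and 50.9% lower of all genes compared, so nothing sets the list apart by count. The higher gene, *Phlda3*, was at 161 and 193 CPM, 6.34 and 5.61 times other bins and 1.09 and 0.850 times white fat. *Cdkn1a*, the p21 cell cycle inhibitor, had 17 and 22 UMIs and ratios of 3.48 and 2.86 to other bins, from too few UMIs to be counted. *Mdm2*, among the lower genes, had 21 and 18 UMIs and ratios of 0.485 and 0.266. No WT brown fat bins were captured, so no comparison of brown fat between genotypes could be made.

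Outside the lists, the genes with the largest ratio to other bins shared by both sections were led by *Coq8a*, a kinase-like protein of coenzyme Q synthesis, at 485 and 499 UMIs in brown fat bins and 30.4 and 40.8 times other bins. It was also 15.7 and 8.61 times white fat. *Ces1d*, a carboxylesterase, was 27.8 and 27.6 times other bins, *Cdo1*, cysteine dioxygenase, 23.0 and 20.8 times and *Hp*, haptoglobin, 16.2 and 32.7 times. *Sycp3* (18.8 and 23.4) and *Chpt1* (17.7 and 25.8) overlap each other on opposite strands, and 3 of the 10 genes at this end were copies of mitochondrial genes. Overlaps were common among such genes. Of 560 higher symbols placed in the annotation, 85 (15.2%) overlapped a further higher gene, against 160 of 9792 compared (1.63%), and reads of overlapping genes cannot be told apart where strand was not used. The strand of the counting was not given in the sources used here. The genes with the smallest ratios were *Tnf*, *Patj*, *Igsf3* and *Edaradd*, with 0 UMIs in brown fat bins of both sections, and *Glycam1*, with 2 and 0 UMIs there and 3679 and 503 in other bins. The remaining 5, *Tspoap1*, *9530053A07Rik*, *Elmo3*, *Itgax* and *Wfikkn2*, had at most 2 UMIs in either section.

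Against white fat, the same rule gave *Ttc41* (55 and 54 UMIs in brown fat bins, 1 and 0 in white fat bins), *Coq8a*, *Spidr* (15.5 and 6.75 times), *Slc25a42* (5.17 and 5.23), *Mrps36*, *Dvl2* (4.35 and 4.38), *Macrod1* and the predicted genes *Gm44386* and *Gm10108*. The *Spidr* ratios rested on 1 and 4 UMIs in white fat bins and those of *Slc25a42* on 3 and 6, so their size is uncertain. *Slc25a42* carries coenzyme A into mitochondria, and *Mrps36* is a subunit of the oxoglutarate dehydrogenase complex, with 169 and 187 UMIs in brown fat bins and 11 and 1 in white fat bins. *Dvl2* overlaps *Acadvl* on the opposite strand. At the lower end were *Gm20425*, *Slc25a10*, the dicarboxylate carrier (0.114 and 0.114 times white fat), *Gas6* (0.201 and 0.0905), *Htra3*, *C4b*, *Ly75*, *Ccdc80*, *Retnla*, *Rassf2* and *Arhgdib*. *Retnla*, a resistin relative, had 117 and 18 UMIs in brown fat bins and 153 and 368 in white fat bins, so the size of its difference was not alike in the 2 sections.

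Around the patches, *Ucp1* was lower with each step of distance. In KO1134, *Ucp1* was at 252, 48.0, 27.6, 9.66, 2.97 and 1.02 CPM in other kept bins up to 54, 108, 216, 432 and 864 µm from the nearest brown fat bin of a patch of at least 4 bins and beyond, and in KO1308 at 539.6, 216, 48.8, 14.5, 10.2 and 4.51. The mitochondrial share over the same distances was 9.49, 3.14, 2.66, 1.76, 1.21 and 1.07% in KO1134 and 12.0, 3.95, 2.39, 1.25, 1.11 and 1.18% in KO1308. The bins within 54 µm were 206 and 98, of which 2.91 and 35.7% lay in the thymus area. Whether transcripts that moved between spots, or bins cut by the border of the fat, had a part in this was not tested.

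**Figure D4:**
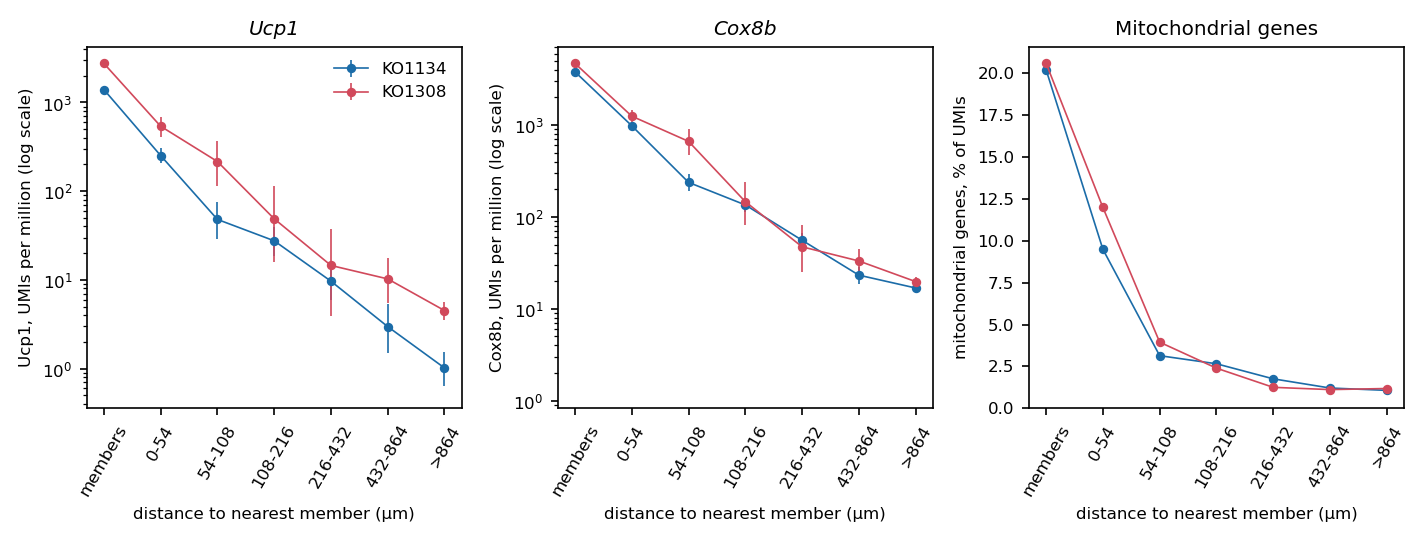
*Ucp1* and *Cox8b* (CPM, log scale) and the mitochondrial share (% of UMIs) in brown fat bins ("members") and in other kept bins by distance to the nearest brown fat bin (µm), for KO1134 (blue) and KO1308 (red), with exact Poisson 95% intervals for the genes. *Ucp1* goes from 1399 and 2758 CPM in brown fat bins to 1.02 and 4.51 beyond 864 µm.

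Along the share of the brown genes itself, the lists did not move in step. The 13 mitochondrial protein genes held 10165, 24892, 119240, 186863 and 204301 CPM in KO1134 bins with no brown gene UMI, above 0 to 0.25%, 0.25 to 0.5%, 0.5 to 1% and 1 to 2% of UMIs from these genes, and 10377, 21978, 96056, 179389 and 202898 in KO1308. Lipogenesis genes were already at 19294 and 25445 CPM from 0.25 to 0.5%, close to their 23472 and 30902 in the highest of these ranges. Among these ranges, the white genes of the rule were highest from 0.25 to 0.5%, just below the threshold, at 8634 and 13866 CPM. They stood at 4111 and 7163 CPM from 1 to 2%. The range with no brown gene UMI, at 249 and 613 CPM, pools white fat bins with the many other bins without such UMIs. In white fat bins alone these genes held 16301 and 28609 CPM. T cell genes went from 5034 to 758 CPM in KO1134 and from 6237 to 224 in KO1308.

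**Figure D5:**
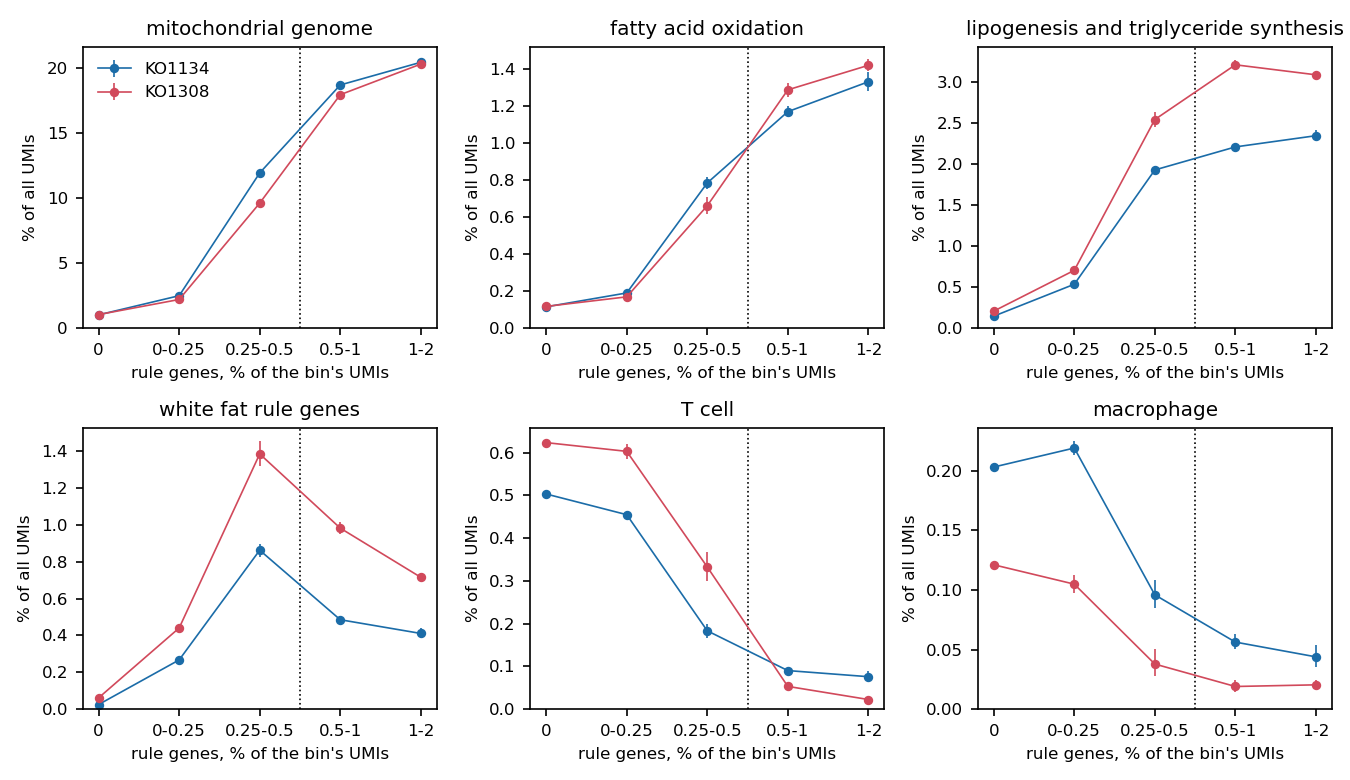
Share of all UMIs (%) held by 6 gene lists in kept bins grouped by the share of UMIs from the 4 brown genes (x axis, %), for KO1134 (blue) and KO1308 (red), with exact Poisson 95% intervals. Bins to the right of the dotted line are the brown fat bins, without the 1 bin of KO1308 above 2%; the white genes of the rule are highest just to its left, while mitochondrial transcripts are highest to its right.

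Within the largest patch, bins with brown fat on all 8 sides (82 and 296 bins) were set beside those at its rim (173 and 202 bins). The 4 brown genes held 9244 and 11881 CPM in the core and 8392 and 10119.8 at the rim, and fatty acid oxidation 13081 and 14712 against 11818 and 12767. White genes of the rule were lower in the core, at 3648 and 6879 CPM against 4453 and 8679, as were T cell genes (654 and 187 against 921 and 248). In the next largest patch, of 16 and 47 bins, the white genes of the rule held 8231 and 13170 CPM, above the 4169 and 7393 of the largest patch in both sections.

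The brown fat of KO1134 was also set beside that of KO1308, 1 mouse of 17 weeks beside 1 of 21 weeks. Pearson's r of log2 CPM was 0.882 over 7172 genes, which is across genes, and genes are not independent replicates. In KO1134, 625 genes (8.71%) were at least 2-fold higher and 368 (5.13%) at least 2-fold lower, of which 367 (5.12%) and 130 (1.81%) also differed 2-fold relative to the other bins of the same sections. Mitochondrial transcripts were nearly equal, at a ratio of 0.989 (0.982 to 0.996). Several fat lists had ratios below 1, in part as in the other bins of the same sections: lipogenesis was at 0.717 (0.703 to 0.731) against 0.778 in other bins, lipid droplet genes at 0.687 (0.659 to 0.715) against 0.920, and the white genes of the rule at 0.567 (0.545 to 0.591) against 0.580. Fatty acid uptake was at 0.756 (0.738 to 0.774) against 1.12 and thermogenesis at 0.800 (0.766 to 0.835) against 0.920. Single genes past 2-fold were 4 of 21 for lipogenesis and 0 of 18 for lipid droplets. T cell genes were at 2.51 (2.19 to 2.89) and macrophage genes at 2.67 (2.23 to 3.21), while in the other bins they were at 0.801 and 1.70. In KO1134 the brown fat lay nearer the thymus area (medians of 157 and 731 µm), and whether this had a part in the difference was not tested.

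Among single genes of the brown programme, *Ucp1* had a ratio of KO1134 to KO1308 of 0.507 (95% interval 0.471 to 0.545), *Cidea* 0.923 (95% interval 0.852 to 1.000) and *Cox7a1* 0.993 (95% interval 0.925 to 1.07), all 3 being genes of the rule. *Elovl3* had 5 and 39 UMIs, a ratio of 0.151 (95% interval 0.0465 to 0.384), and *Nr4a1*, a gene induced by cyclic AMP, 45 and 174, a ratio of 0.305 (95% interval 0.215 to 0.425). *Acsl5*, an acyl-CoA synthetase, had 34 and 126 UMIs. Outside the lists, the ends were *Arid3b* (43 and 0 UMIs), *Fabp12* (31 and 0), *Tcrg-C4* (26 and 0) and *Wnk4* (110 and 3) for KO1134, and *Ubap1l* (0 and 48), *Sik1* (0 and 23) and *Ndufb1-ps* (0 and 1112) for KO1308. In the other bins, the ratio of KO1134 to KO1308 was 1.75 for *Arid3b*, 2.61 for *Fabp12*, 5.76 for *Tcrg-C4* and 56.9 for *Wnk4*. It was 0.0302 for *Ubap1l* and 0.309 for *Sik1*, so these genes differed in the same direction outside brown fat. *Ndufb1-ps* was 1 of 20 genes that had 0 UMIs in the whole KO1134 section and at least 100 in KO1308, 22356 UMIs in all. It had 0 UMIs in WT1101 too. By the same criterion, 22 genes were at 0 in WT1101 beside KO1308, but 1 was at 0 in KO1134 beside WT1101. KO1308 was thus the section that differed from both others in such genes. The feature lists of the sections were identical, and the cause of these 0 values was not tested.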

How the data were processed

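Spatial RNA sequencing was performed on thymus cryosections of 2 KO mice (KO1134 and KO1308) and 1 WT mouse (WT1101). The authors aligned the reads with BSTMatrix and STAR to GRCm38, and the deposited files hold raw UMI counts for 54838 genes per barcoded spot, with each section separate and no filter or normalisation applied. The files of barcode sequences were not used. Spot names number array positions, so shared names do not mark shared cells.

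Spots were summed in squares of 27 µm, and bins were kept from 300 genes upwards and up to 30% mitochondrial UMIs. No doublets were called, since a bin can hold several cells. Counts of each class of bins were divided by its total UMIs, with intervals at 95% (exact Poisson for levels, exact binomial for shares and, conditional on the sum of both counts, for ratios) for counting error only, since bins of 1 section are not replicates. No p-value was computed, because the rule defines the contrasts and 1 or 2 mice made up a group. A gene was compared where at least 10 UMIs were expected in the smaller class of both KO sections, and called higher or lower at 2-fold in both. A gene at 0 UMIs was given as counts with no fold, and 3 UMIs set the limit of a count of 0.

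Named genes were those of the rule, genes of 44 lists (those with most UMIs in brown fat bins or with a defining role), the 10 largest and 10 smallest ratios outside the lists in each comparison with other bins and white fat, and the ends of the comparison of the KO sections. A few lists have further examples, chosen after their values were seen. Some genes that the rule names are not reported here. The members and lists were chosen with earlier results of these data known. Gene coordinates came from GENCODE M21 (GRCm38, 99.79% of identifiers matched) and promoters from RefSeq (GRCm38.p6). For 101 symbols carried by more than 1 identifier, each identifier was kept apart. The alternatives were other bin widths, thresholds, gene minimums, denominators, folds and classes of white fat bins, and leaving out the largest patch, muscle bins or a section. Calculations used Python 3.11.15, numpy 2.4.6, scipy 1.17.1, pandas 2.3.3 and matplotlib 3.10.9. The ratio intervals, and calls at a lower fold, were tested on simulated counts with counting error only. The 2-fold calls and the spread between bins were not tested in this way.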

Additional observations from a re-analysis of the deposited data

Results flagged for a closer look

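Bins with fewer than 300 detected genes were left out of every comparison. In KO1134, 501 such bins held 52 UMIs of *Ucp1*, *Cidea*, *Cox7a1* and *Cox8b* together, which is 655 CPM (exact Poisson 95% interval 489 to 859). In KO1308, 13774 such bins held 1478 UMIs of these genes, which is 561 CPM (533 to 591). The level in the left-out bins of the WT section was 8.65 CPM (3.74 to 17.1), from 8 UMIs in 4353 bins, so brown fat transcripts were present in data that the rule did not use, above the level in WT. Both left-out sets lay below the level in brown fat bins.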

How the results depend on the processing

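The alternatives gave 1133 list ratios and 216 ratios of named genes, of which 960 and 162 moved by less than the spread between the 2 KO sections. These counts include ratios with 1 section left out, whose move is always smaller than that spread. The sign of ratios past 2-fold in both sections was fixed there too. No ratio past 2-fold changed sign, and the sign of list ratios nearer to 0 changed in 10 cases. The mean share of brown fat bins (2.86%) was 3.99% with a threshold of 0.25%, 1.23% with 1% and 0.368% without the largest patches, and the mean share that touched a further brown fat bin (97.1%) was 90.4% with 0.25% and 78.7% without the largest patches. With the threshold at 1%, genes higher and lower than in other bins were 270 and 2430, genes lower than in white fat 601, and genes higher and lower in KO1134 than in KO1308 149 and 154. Without the largest patches these counts were 104, 537, 89, 49 and 86, with 97 genes higher than in white fat and 4 lists at least 2-fold higher and 7 lower than in white fat, in place of 7 and 12. With at least 50 expected UMIs, the genes higher and lower than in other bins were 203 and 1622, than in white fat 136 and 54, and between KO1134 and KO1308 122 and 43. At 4-fold, they were 269 and 1470, 35 and 14, and 108 and 46, and the lists 10 higher than in other bins (19 at 2-fold) and 0 higher and 1 lower than in white fat. Over UMIs without mitochondrial and brown marker genes, 3306 genes were lower than in other bins, and 347 were higher and 209 lower than in white fat. Genes lower than in white fat (386) were 252 with bins of 20 µm, 161 with bins of 50 µm, 230 with a threshold of 0.25%, 240 with at least 500 genes, 169 in connected groups of at least 200 bins and 583 with white fat bins that may hold brown genes below the threshold. With 1 KO section at a time, the counts ranged from 637 (without KO1308) to 839 (without KO1134) higher and 5756 to 7308 lower than in other bins, and from 302 to 407 higher and 747 (without KO1308) to 1037 (without KO1134) lower than in white fat. A call then needed 1 section in place of both, and the share of brown fat bins was 2.49 to 3.22%. The comparison of KO1134 with KO1308 could not be given without either. The causes of the other differences were not tested. No paired test was made, although brown fat bins were compared with other bins and white fat bins of the same section. Depth limited the genes named at few UMIs, such as the receptors and transcription factors, and the 1 WT section holds no brown fat bins to compare.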
